A study of Mus musculus with 12 samples.

Results

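Meg3, Rian, Mirg and Rtl1 are 4 neighbouring transcripts of the imprinted Dlk1-Dio3 region of mouse chromosome 12. They were taken by symbol from a deposited table of 15846 genes, and all 4 were found and passed the filter on low counts. Their levels came from RNA sequencing of 12 livers of C57BL/6 mice aged 5 months, in 4 groups of 3. The groups were WT on Chow, WT on HFCF, Shp Hep-/- on Chow and Shp Hep-/- on HFCF, where HFCF is the labels' name of the diet. Shp Hep-/- (KO below) is a hepatocyte deletion of Shp, gene symbol Nr0b2, an orphan nuclear receptor that binds other receptors and lowers their activity. The labels name neither the allele nor the driver of the deletion. The 4 transcripts were singled out because of their levels in these same livers, mainly the difference between KO and WT. Their own values are therefore given as a description, with no test.

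Genomic imprinting restricts a gene's expression to the copy inherited from one parent. In this region the maternal copy gives rise to noncoding RNAs and the paternal copy to protein-coding genes. Meg3 is a long noncoding RNA, Rian is a long noncoding RNA that hosts small nucleolar RNAs, and Mirg is a noncoding RNA that hosts a cluster of miRNAs. Rtl1 encodes a protein derived from a retrotransposon that is needed in the placenta, and its raised expression has been linked to liver tumours in mice. A maternal transcript on the opposite strand of Rtl1 carries further miRNAs that can cleave Rtl1 RNA. The region is active in the fetus and placenta and largely silent in the adult liver. Dlk1 and Dio3, the genes that name the region, are not analysed here.

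In the mm10 coordinates of the deposited table, the 4 transcripts spanned 208.455 kb. Meg3 (ENSMUSG00000021268) lay at chromosome 12, 109541001 to 109571726, on the plus strand. Rtl1 (ENSMUSG00000085925) followed at 109589194 to 109600330 on the minus strand. Rian (ENSMUSG00000091793) lay at 109603945 to 109661709 and Mirg (ENSMUSG00000091158) at 109734981 to 109749455, both on the plus strand. The GENCODE M21 annotation of the same build lists Meg3 and Mirg as lincRNA, Rian as a processed transcript and Rtl1 as protein coding.

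The Meg3 promoter is shown because it is the only member promoter among the windows searched that held the full cAMP response element, TGACGTCA, the site recognised by CREB and ATF proteins. The window is the RefSeq one (GRCm38.p6, 250 bases before to 50 bases after the start, chr12:109540746-109541045, plus strand), with that element in capitals:
Meg3 promoter: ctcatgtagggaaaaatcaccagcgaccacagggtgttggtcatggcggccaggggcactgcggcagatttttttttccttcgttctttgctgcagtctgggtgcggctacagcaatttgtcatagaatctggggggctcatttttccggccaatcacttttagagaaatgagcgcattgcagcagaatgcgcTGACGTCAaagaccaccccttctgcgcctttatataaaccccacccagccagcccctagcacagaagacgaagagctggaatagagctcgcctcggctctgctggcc

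Both strands were searched. TGACGTCA began 57 bases before the start, and 1.79% of 32851 RefSeq promoter windows held it. Its shorter form TGACG, which the full element contains on each strand, was in 20.8% of windows. TGCCGC, the letters bound by the imprint-protecting zinc finger protein ZFP57, had 1 match in the Meg3 window and was in 11.6% of all windows. AGGTCA, the core site of many nuclear receptors, had 0 matches there and was in 16.3% of all windows. A further Meg3 window, at 109545148 to 109545447, held AGGTCA but none of the other 3. The Rian window (109603695 to 109603994) and the Mirg window (109734731 to 109735030) held none of the 4. Rtl1 had no entry. These matches describe letters only.

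The region also encodes small RNAs, and RefSeq lists 114 mature miRNA entries from 61 loci between Dlk1 and Dio3, 57 of them on the plus strand. By the gene bodies of the deposited table, Meg3 contained 2 of these loci, Rian 3 and Mirg 10. GENCODE M21 starts Mirg earlier, at 109729764, and that body also holds Mir382, Mir134, Mir668 and Mir485. Rtl1 contained 6 on its opposite strand and 1 on its own. The miRNAs themselves were not measured. Mature sequences from the strand opposite Rtl1 are shown, with the seed (bases 2 to 8) in capitals, because their precursor overlaps a member whose reads were counted:
miR-431-5p: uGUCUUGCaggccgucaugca
miR-433-3p: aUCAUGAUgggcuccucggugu
miR-127-3p: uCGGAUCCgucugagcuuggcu
miR-434-3p: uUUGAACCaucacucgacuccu
miR-432: uCUUGGAGuagaucagugggcag
miR-136-5p: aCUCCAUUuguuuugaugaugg

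Each of these had a seed of its own. The 114 entries held 104 distinct seeds, and 9 seeds were shared by 2 named miRNAs each. The pair inside Mirg that shared a seed, GGUUGCC, is shown beside miR-1906, whose locus inside Meg3 had a row of its own in the count table:
miR-453: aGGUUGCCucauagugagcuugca
miR-496a-5p: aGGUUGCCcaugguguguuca
miR-1906: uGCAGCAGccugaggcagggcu

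The table also held 2 rows for C/D box small nucleolar RNAs inside Rian, both named SNORD113. Their GENCODE M21 sequences are shown with the letters of box C (TGATGA) and box D (CTGA) in capitals, the pair of motifs that defines this class of RNA:
SNORD113 at chr12:109646129-109646202: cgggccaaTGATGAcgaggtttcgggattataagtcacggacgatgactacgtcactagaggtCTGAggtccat
SNORD113 at chr12:109649617-109649688: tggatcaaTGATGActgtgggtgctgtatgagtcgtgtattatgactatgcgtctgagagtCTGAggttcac

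The libraries held 13967116 to 18324134 counts. Nr0b2, the targeted gene, stood between 22.4 and 53.4 CPM (library-scaled counts relative to 1e6, with TMM scaling) in the 6 WT livers and between 0.21 and 1.01 CPM in the 6 KO livers. The edgeR quasi-likelihood test called it lower in KO on chow (log2 fold change -5.44 ± 0.32, adjusted p = 1.7e-07) and on HFCF (-7.05 ± 0.35, adjusted p = 3.37e-08). Here ± is the standard error of the fit, and p-values were adjusted by the Benjamini-Hochberg method over all 14736 genes tested. Hepatocyte markers were present in every liver, at sums of 38000 to 39700 CPM in WT and 27100 to 31800 in KO on chow, and 29300 to 35800 in WT and 30000 to 32000 in KO on HFCF. Nothing in the labels says whether livers of a group came from separate litters or runs. A p-value therefore sets a difference only against the spread between these livers.

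All 4 transcripts were close to undetectable in WT livers and present in every KO liver. Meg3 and Rian reached 17.8 to 68.0 CPM in KO, and Mirg and Rtl1 reached 4.36 to 9.02 CPM. In each of the 4, the lowest KO library exceeded the highest WT library, on either diet. Among all tested genes, 19.4% had every KO library above every WT library on chow and 18.5% on HFCF. Upward calls by edgeR made up 9.72% and 10.6% of tested genes in these comparisons. Genes higher in KO by at least 32-fold in the fit, as all 4 were, made up 0.482% on chow and 0.482% on HFCF. Since the members were chosen on this difference, nothing is read from these shares.

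Meg3 had 5, 10 and 4 counts in the WT livers on chow and 7, 3 and 2 in the WT livers on HFCF. The KO livers had 949, 766 and 733 counts on chow and 245, 372 and 351 on HFCF. In CPM, the KO livers stood at 52.5, 52.9 and 46.2 on chow and at 17.8, 26.0 and 19.7 on HFCF, against 0.129 to 0.708 over all WT livers. The 3 KO livers on chow lay close together, and each lay above every KO liver on HFCF. Summed over the livers of a group and scaled by library size, the level in KO was 113 times that in WT on chow, with a 95% exact interval of 72.4 to 188. On HFCF it was 83.6 times, with an interval of 47.6 to 162. These intervals cover counting error only.

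Rian, the snoRNA host, had 2, 3 and 5 counts in WT on chow and 8, 5 and 3 in WT on HFCF. KO livers had 911, 919 and 1079 counts on chow, and 509, 777 and 586 on HFCF. That is 50.4, 63.4 and 68.0 CPM on chow and 37.0, 54.3 and 33 CPM on HFCF. The highest KO liver on HFCF lay between the lowest and the middle liver on chow, so these groups overlapped. The ratio of KO to WT was 256 on chow (interval 139 to 534), and 121 on HFCF (74.4 to 213).

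Mirg, the miRNA host, had 1, 2 and 1 counts in WT on chow and 2, 0 and 0 in WT on HFCF. KO livers had 88, 96 and 123 counts on chow and 60, 120 and 80 on HFCF, or 4.87, 6.63 and 7.75 CPM and 4.36, 8.39 and 4.5 CPM. The liver with the highest level was on HFCF and the one with the lowest was too, so the diets overlapped fully. The ratio of KO to WT was 67.5 on chow (interval 26.1 to 249). On HFCF, with 2 counts in WT in all, it was 135 with an interval of 36.9 to 1120.

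Rtl1, the retrotransposon-derived gene, had 1, 2 and 0 counts in WT on chow and 4, 0 and 1 in WT on HFCF. KO livers had 92, 90 and 120 counts on chow and 75, 129 and 88 on HFCF, or 5.09, 6.21 and 7.56 CPM and 5.45, 9.02 and 4.95 CPM. The ranges of the KO groups overlapped here as well. The ratio of KO to WT was 88.5 on chow, where WT had 3 counts in all (interval 30 to 432), and 60.5 on HFCF (25.6 to 188). A WT library with 0 counts allows a level of up to 3 counts, which is 0.193 to 0.209 CPM in the 3 libraries where Mirg or Rtl1 had none. The library kit keeps the strand of the RNA, but the strand setting of the counting is not given in the sources used here. Reads of Rtl1 therefore cannot be told apart from reads of the miRNA-bearing transcript on its opposite strand.

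**Figure D1:**
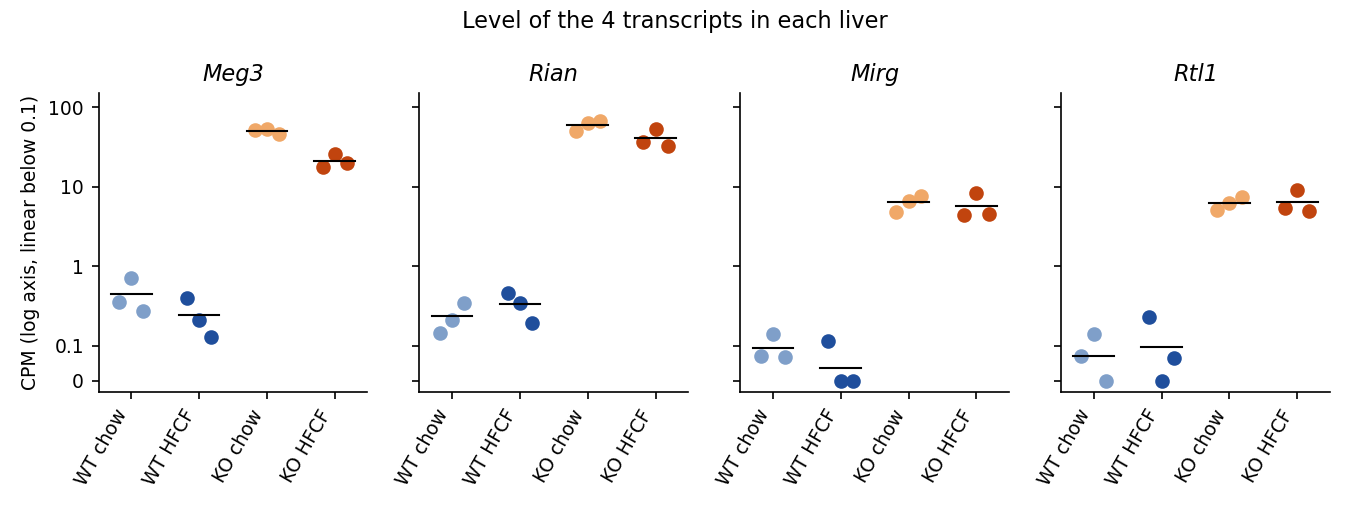
Level of Meg3, Rian, Mirg and Rtl1 in each of the 12 livers, in CPM on a log axis that is linear below 0.1; each point is 1 liver and each bar the mean of 3. The WT livers lie at or below 0.708 CPM, and the KO livers lie at or above 4.36 CPM.

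On the log2 scale of the edgeR fit, KO minus WT on chow was 6.80 ± 0.24 for Meg3, 7.96 ± 0.31 for Rian, 5.97 ± 0.51 for Mirg and 6.32 ± 0.55 for Rtl1. On HFCF it was 6.35 ± 0.27 for Meg3, 6.91 ± 0.30 for Rian, 6.84 ± 0.57 for Mirg and 5.83 ± 0.50 for Rtl1. The standard errors of Mirg and Rtl1 are the larger ones, with WT groups of 2 to 5 counts. Leaving out 1 library moved some of their values widely: Mirg on HFCF reached 9.44 without WT HFCF replicate 1, the only WT liver on that diet with a read. Rtl1 on HFCF reached 7.27 without the same library, and on chow it ran from 5.77 without WT chow replicate 3 to 7.17 without WT chow replicate 2.

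In WT livers the counts were too low to order the diets. The ratio of HFCF to chow in WT was 0.566 for Meg3 (95% exact interval 0.251 to 1.23) and 1.43 for Rian (0.612 to 3.54). It was 0.448 for Mirg (0.0405 to 3.13) and 1.49 for Rtl1 (0.291 to 9.62). All 4 intervals include 1, and they cover counting error only. A difference between diets in WT was not detectable at this depth.

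Within KO, the diets differed by transcript. Meg3 was lower on HFCF than on chow, with a log2 fold change of -1.25 ± 0.14 and 3 of 3 libraries below the chow range. Its ratio of HFCF to chow was 0.418 (interval 0.387 to 0.45). Over all tested genes, 11.3% had every KO library on HFCF below every KO library on chow, and 1.18% were called lower by edgeR. Calls in either direction made up 2.65%, and upward calls 1.47%. In WT the diet gave calls for 7.76% upward and 5.9% downward (13.7% in all), and the interaction of diet and genotype for 0.373% upward and 0.421% downward (0.794% in all). Rian had a log2 fold change of -0.55 ± 0.16 with overlapping groups. Mirg (-0.16 ± 0.26) and Rtl1 (0.04 ± 0.27) lay within 1 standard error of 0.

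The same contrast shows inside each library, where the ratio of 2 transcripts does not depend on depth or scaling. Meg3 had 1.04, 0.834 and 0.679 counts per count of Rian in the KO livers on chow, and 0.481, 0.479 and 0.599 on HFCF. The means were 0.852 ± 0.182 and 0.52 ± 0.0687 (SD, n = 3), and the groups did not overlap. Rtl1 to Rian ran the other way, at 0.101, 0.0979 and 0.111 on chow and 0.147, 0.166 and 0.15 on HFCF. Mirg to Rian also lay higher on HFCF, at 0.118, 0.154 and 0.137 against 0.0966, 0.104 and 0.114. Their means were 0.103 ± 0.00696 and 0.155 ± 0.0101 for Rtl1 to Rian, and 0.105 ± 0.00871 and 0.136 ± 0.0183 for Mirg to Rian. Both share Rian as the denominator, and the nearest livers for Mirg to Rian, at 0.114 and 0.118, lay close together. The share of other gene pairs whose ratios separate the diets in this way was not computed. Rtl1 to Mirg had 1.05, 0.938 and 0.976 on chow and 1.25, 1.07 and 1.1 on HFCF, with 1.05 and 1.07 as the nearest livers. Groups of 3 that do not overlap are the most extreme arrangement that an exact permutation test of 3 against 3 can meet, and it could not go below 0.10, so none was run.

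**Figure D2:**
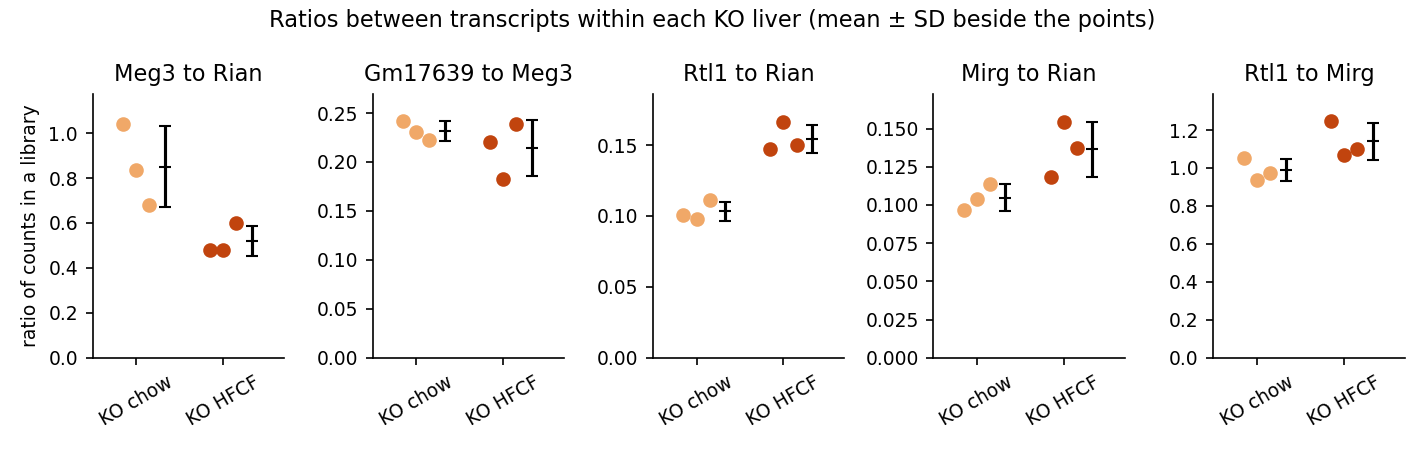
Ratio of the counts of 2 transcripts within each KO liver, with chow in light and HFCF in dark orange and the mean ± SD of 3 livers beside the points. Meg3 to Rian is lower on HFCF in each liver, Rtl1 to Rian, Mirg to Rian and Rtl1 to Mirg are higher, and Gm17639 to Meg3 overlaps between diets.

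Divided by the gene length given in the table, Rian was the most abundant of the 4 in KO livers. On chow it stood at 7.39 ± 1.11 CPM per kb (SD, n = 3), followed by Meg3 at 2.79 ± 0.208, Mirg at 2.02 ± 0.457 and Rtl1 at 0.989 ± 0.195. The libraries of neighbours in this order did not overlap on chow. On HFCF, Rian stood at 5.05 ± 1.39 CPM per kb, Mirg at 1.81 ± 0.721, Meg3 at 1.17 ± 0.237 and Rtl1 at 1.02 ± 0.349. There Mirg overlapped with Meg3, and Meg3 with Rtl1, so only the place of Rian was separate from its neighbour. In WT the per-length means lay between 0.0112 and 0.0405 CPM per kb, from 0 to 10 counts a library. The authors' FPKM means kept both orders in KO, but they divide the same counts by the same gene lengths and are no separate check. These orders depend on the gene length, which the table gives as 8197 bases for Rian and 3175 for Mirg, while all exons of GENCODE M21 cover 18234 and 7292. With the GENCODE lengths, a choice made after seeing the data, Rian stood at 3.32 ± 0.501 CPM per kb on chow, where its libraries overlapped with those of Meg3, and at 2.27 ± 0.621 on HFCF, above every Meg3 library. Mirg then stood at 0.88 ± 0.199 and 0.789 ± 0.314 CPM per kb, below Meg3 on both diets by the mean and overlapping with Rtl1.

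**Figure D3:**
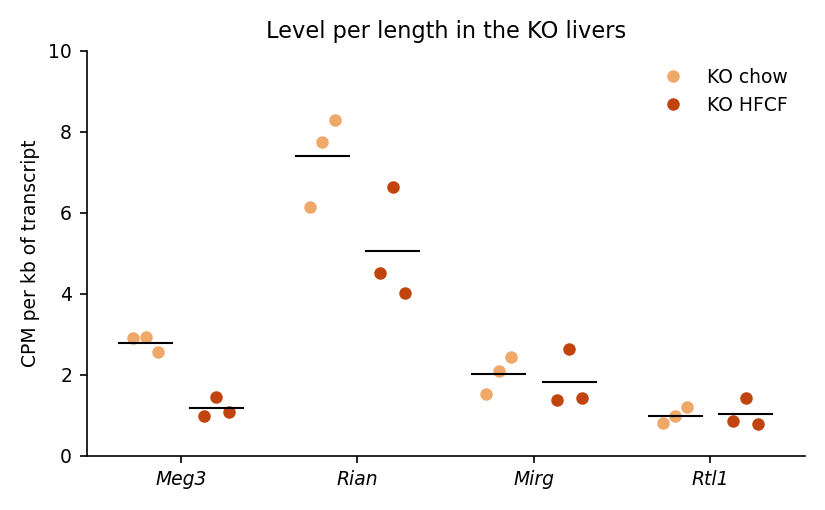
Level of the 4 transcripts per kb of the gene length given in the table, in the 6 KO livers; each point is 1 liver and each bar the mean of 3. Rian is highest on both diets, and Meg3 moves from above Mirg on chow to below it on HFCF.

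Livers of a group also varied together. After each liver's value was taken as its deviation from the mean of its group, the 6 KO livers gave correlations of log2 CPM of 0.973 between Rian and Mirg, 0.986 between Rian and Rtl1, and 0.982 between Mirg and Rtl1. The KO HFCF replicate 2 liver was the highest of its group for all 4 transcripts and set part of this; without it the 3 values were 0.907, 0.953 and 0.938. Meg3 was less tied to the others, at 0.585 with Rian, 0.622 with Mirg and 0.567 with Rtl1. Without KO HFCF replicate 2 these turned to -0.698, -0.568 and -0.811, so they rest on that liver. The values are descriptions over 6 livers that share library scaling, with no test.

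The table held 4 more rows inside the members, and each lay wholly within exons of its host in GENCODE M21. They share reads or sequence with the host, so they are no separate evidence. Mir1906-1 (109544541 to 109544620, inside Meg3) had 22, 10 and 19 counts in KO on chow and 5, 1 and 8 in KO on HFCF, against 0 in all 6 WT livers. It was at least 11.7-fold higher in KO on chow and at least 3.44-fold higher on HFCF by the exact 95% lower limit. Against a floor of 3 counts over the WT group, the folds were 14.9 and 4.83. The row covers the 80 bases of the hairpin, and long-RNA reads of Meg3 can fall on it.

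Gm17639 (109568628 to 109571723, minus strand) faces the last part of Meg3. It had 3, 3 and 0 counts in WT on chow, 2, 0 and 0 in WT on HFCF, 230, 177 and 163 in KO on chow, and 54, 68 and 84 in KO on HFCF. Its count was 0.242, 0.231 and 0.222 of the Meg3 count in the KO livers on chow, and 0.22, 0.183 and 0.239 on HFCF. It thus followed Meg3 across diets, and its reads cannot be told apart from those of Meg3 without the strand setting.

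The SNORD113 row at 109646129 to 109646202 had 20, 17 and 28 counts in KO on chow and 16, 20 and 18 in KO on HFCF. It had 0 counts in WT on chow and 1 in WT on HFCF. By the exact lower limit it was at least 15.1-fold higher in KO on chow (19-fold against the floor), and it was 55.9 times as high on HFCF, with an interval of 9.62 to 2250 from that 1 count. The other SNORD113 row had 4, 10 and 6 counts in KO on chow and 1, 7 and 1 in KO on HFCF, with 0 in WT. Its exact lower limits were 4.34-fold on chow and 2.04-fold on HFCF (5.86 and 3.11 against the floor). Like their host Rian, both SNORD113 rows showed overlapping diets within KO.

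Dio3os, a noncoding RNA on the minus strand beside Dio3 at the far end of the region (110275384 to 110278068), did not follow the 4 members. It had 2, 2 and 1 counts in WT on chow and 3, 0 and 0 in KO on chow, and 7, 12 and 19 in WT on HFCF and 6, 6 and 7 in KO on HFCF. The HFCF livers lay above the chow livers in both genotypes, as they did for 15.8% of tested genes in WT and 13.1% in KO. The ratio of HFCF to chow was 6.81 in WT (95% exact interval 2.68 to 22.2) and 6.69 in KO, where chow had 3 counts in all (1.97 to 35.3). The ratio of KO to WT was 0.528 on chow (0.0819 to 2.71) and 0.518 on HFCF (0.282 to 0.921). Its counts fell under the filter, so it had no place among the tested genes. With no filter, edgeR gave adjusted p = 0.0181 for the diet in WT, 0.108 for the diet in KO, 0.632 for the genotype on chow and 0.235 for the genotype on HFCF. The diet in WT did not pass without WT chow replicate 3 (edgeR adjusted p = 0.0713), in a fit whose filter kept the gene.

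Beyond the region, 11 genes of the deposited table lay within 1 Mb of the 4 transcripts, and none had a difference of the members' size. Every gene in the table reached at least 10 counts in some library, and neighbours without a row could not be checked. Begain, which GENCODE M21 places in this flank, was absent. On chow 2 rose in KO, 0 fell and 9 were not called by edgeR, with a median log2 fold change of -0.04 beside 0.00 for all tested genes. On HFCF 2 rose, 0 fell and 9 were not called, with a median of 0.02 beside 0.02. Among all tested genes, 15.5% were called on chow (5.82% downward) and 19.1% on HFCF (8.52% downward). Degs2, a sphingolipid hydroxylase, stood at 1.07, 0.92 and 1.31 CPM in WT and 2.55, 3.11 and 2.08 in KO on chow (log2 1.21 ± 0.31, edgeR adjusted p = 0.0184). Evl, an actin regulator, stood at 2.5, 2.19 and 3.04 in WT and 5.09, 6.97 and 5.04 in KO on chow (log2 1.13 ± 0.31, edgeR adjusted p = 0.0271). Their bodies overlap on opposite strands, so their reads may be shared. Both calls were lost without WT chow replicate 1 or 2 or KO chow replicate 2, and that of Evl also without WT chow replicate 3, with adjusted p from 0.056 to 0.0951. On HFCF, Degs2 (log2 0.85 ± 0.28, edgeR adjusted p = 0.0481) and Hsp90aa1, a chaperone (log2 0.57 ± 0.18, edgeR adjusted p = 0.0396), passed, and lost the call in 14 and 9 of 18 alternatives. Wdr25, the tested flanking gene nearest to Meg3, had log2 -0.23 ± 0.21 on chow and 0.27 ± 0.21 on HFCF, and neither passed.

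**Figure D4:**
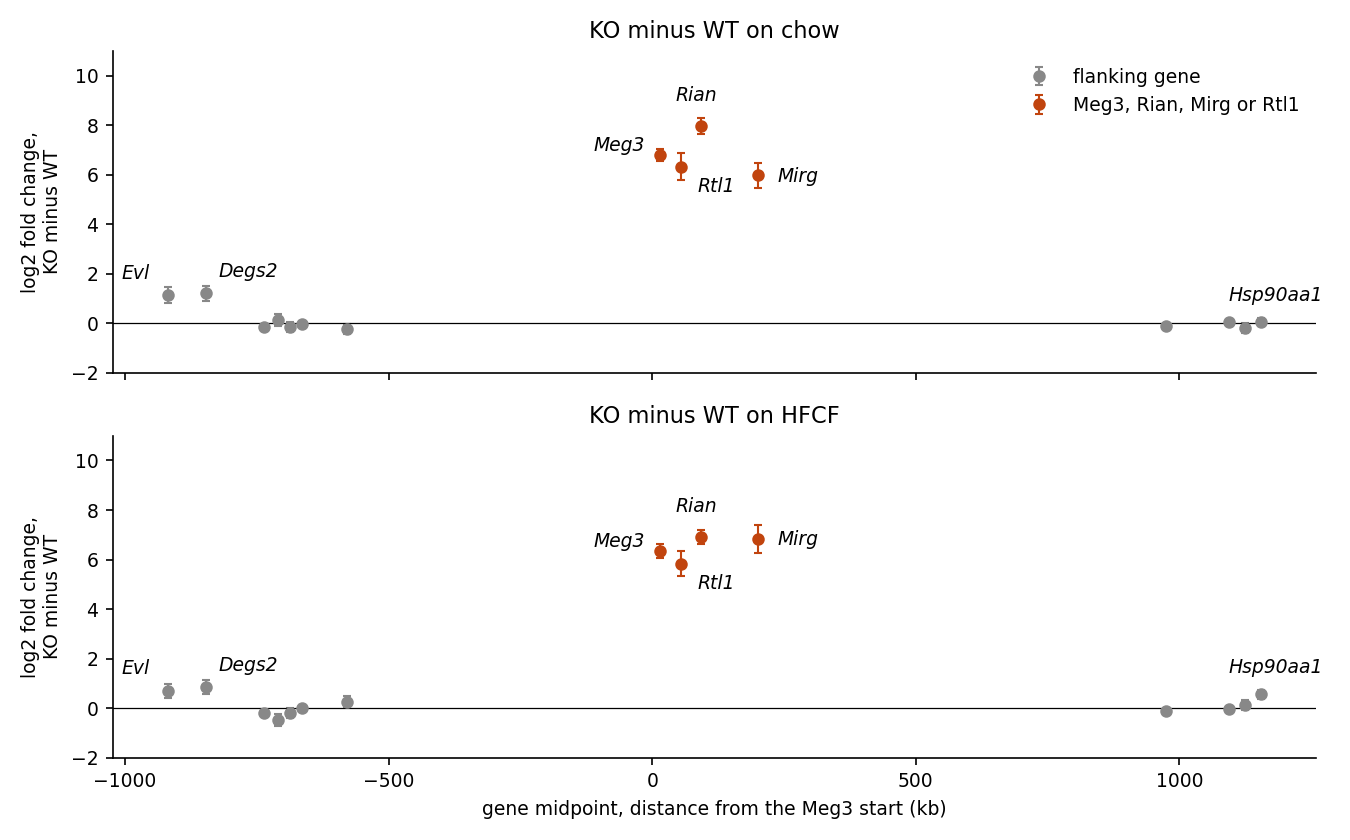
Log2 fold change between KO and WT (± standard error) against the distance of the gene midpoint from the Meg3 start, for the 4 members and 11 flanking genes, on chow (top) and HFCF (bottom). The members lie between 5.83 and 7.96, and the flanking genes lie between -0.47 and 1.21.

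Imprinted genes elsewhere in the genome were compared next, since imprints are set by methylation inherited from a parent. Of 41 listed, 29 were tested. In KO on chow 5 rose, 2 fell and 22 were not called by edgeR, with a median log2 fold change of 0.06 beside 0.00 for all tested genes. On HFCF 2 rose, 3 fell and 24 were not called, with a median of -0.07 beside 0.02. Over all tested genes, 9.72% rose and 5.82% fell on chow, and 10.6% rose and 8.52% fell on HFCF. H19, the maternally expressed noncoding RNA, had 1, 1 and 7 counts in WT and 28, 38 and 39 in KO on chow (log2 3.33 ± 0.51, edgeR adjusted p = 0.000907). On HFCF it had 13, 6 and 4 in WT and 25, 26 and 23 in KO (1.74 ± 0.45, adjusted p = 0.0142 by edgeR). Igf2, its paternally expressed neighbour and a fetal growth factor, had 1, 3 and 3 counts in WT and 21, 15 and 12 in KO on chow (2.53 ± 0.58, edgeR adjusted p = 0.0112). On HFCF Igf2 had 2, 5 and 3 in WT and 7, 13 and 3 in KO and did not pass (edgeR adjusted p = 0.187). Both stayed below the members: H19 averaged 2.21 ± 0.578 CPM and Igf2 0.985 ± 0.208 CPM (SD, n = 3) in KO on chow. The HFCF call of H19 was lost without WT HFCF replicate 2 or 3 or KO HFCF replicate 2 (adjusted p 0.0514 to 0.0531).

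Other imprinted genes moved by smaller steps and in both directions. Cobl, an actin nucleator, rose in KO on both diets (log2 1.13 ± 0.17 on chow and 1.30 ± 0.16 on HFCF, edgeR adjusted p = 0.000697 and 0.00011). Ddc, a decarboxylase of aromatic amino acids, fell on both diets (-0.91 ± 0.12 on chow and -0.65 ± 0.12 on HFCF, edgeR adjusted p = 0.000249 and 0.0017). Slc22a18, a membrane transporter, fell on HFCF (-0.32 ± 0.09, edgeR adjusted p = 0.0218), a call lost without WT HFCF replicate 1 or KO HFCF replicate 2. Peg3, a paternally expressed zinc finger gene, did not pass between genotypes but fell with the diet in WT (-1.14 ± 0.12, edgeR adjusted p = 4.92e-05) and in KO (-0.81 ± 0.11, edgeR adjusted p = 0.00182). The called total of 7 on chow became 4 without WT chow replicate 1 or 2 or KO chow replicate 2. The total of 5 on HFCF became 3 without WT HFCF replicate 1 or 3 or KO HFCF replicate 2.

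**Figure D5:**
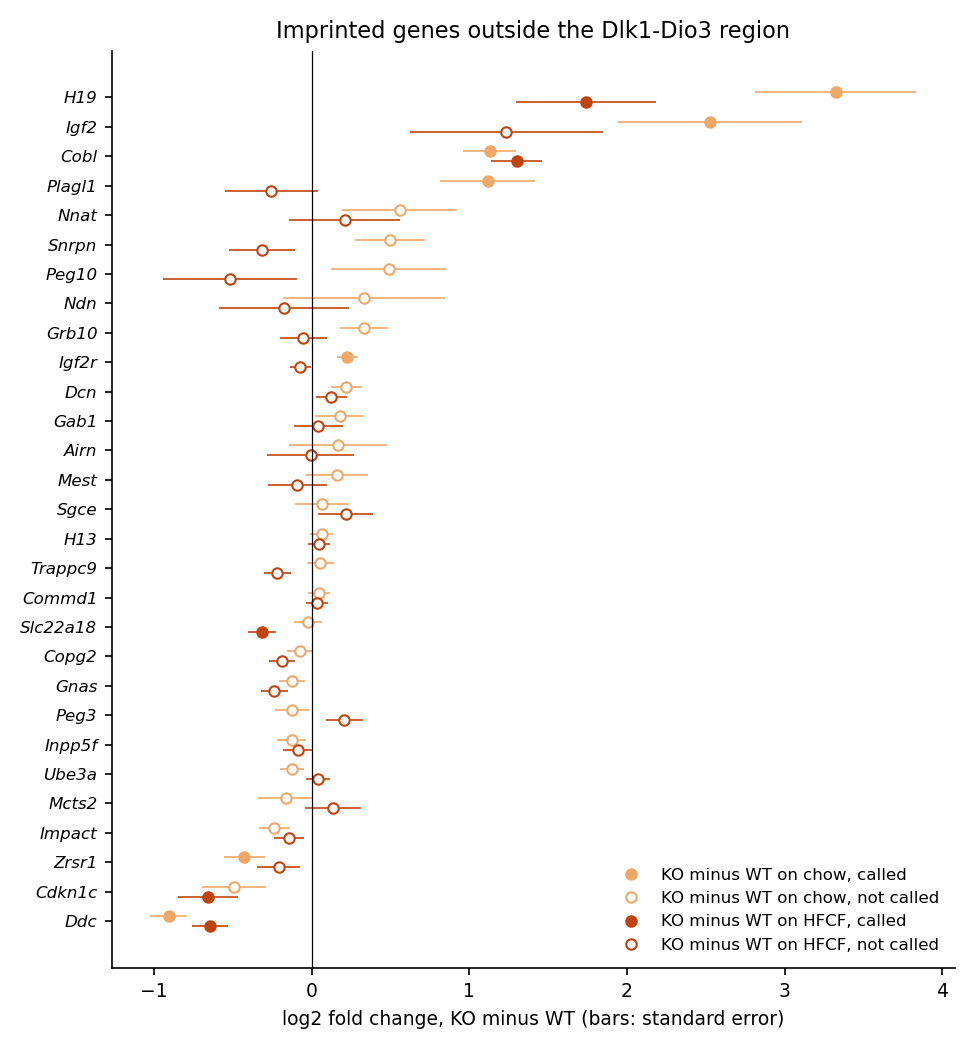
Log2 fold change between KO and WT (± standard error) of the 29 tested imprinted genes outside the region, ordered by their value on chow; filled points passed the edgeR test. H19, at 3.33 on chow, is the highest, below the lowest member value of 5.83.

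DNA methylation is known to keep regions like this one silent on 1 copy, so genes that maintain imprints or read, write or remove methylation were listed. Of 19 tested, 4 rose and 0 fell in KO on chow, and 4 rose and 0 fell on HFCF, with medians of 0.03 and 0.06 beside 0.00 and 0.02 for all tested genes. The shares of all tested genes called were 15.5% on chow (9.72% upward) and 19.1% on HFCF (10.6% upward). Dnmt1, the maintenance methyltransferase, rose on both diets (log2 0.35 ± 0.08 on chow and 0.47 ± 0.08 on HFCF, edgeR adjusted p = 0.0102 and 0.00101). Tet2, which oxidises methylcytosine, rose on both diets (0.37 ± 0.09 on chow and 0.46 ± 0.09 on HFCF, edgeR adjusted p = 0.017 and 0.00357). Its call on chow was lost without WT chow replicate 1 or 3 or KO chow replicate 2 (adjusted p 0.0645 to 0.0792). Dnmt3a, a de novo methyltransferase, rose on HFCF (0.58 ± 0.09, edgeR adjusted p = 0.000711) and did not pass on chow (0.17 ± 0.09, adjusted p = 0.231). The 4 on chow became 1 without WT chow replicate 1 or KO chow replicate 2, and 2 without WT chow replicate 2 or KO chow replicate 1 or 3. Without WT chow replicate 3, 2 rose and 1 fell. Of 11 tested subunits and partners of PRC2, the histone methyltransferase complex that Meg3 RNA is known to bind, edgeR and DESeq2 each called 0 on either diet. At an unadjusted p under 0.05, edgeR gave 0 higher and 2 lower on chow, and 3 higher and 1 lower on HFCF. Without WT HFCF replicate 1 edgeR called 1 higher and 1 lower on HFCF and 1 lower on chow, and without KO HFCF replicate 1 or 2 it called 1 lower on HFCF.

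Of 14 tested CREB family members, coactivators and targets, listed because of the element in the Meg3 promoter, 0 rose and 1 fell on chow, and 1 rose and 0 fell on HFCF. Calls in either direction made up 15.5% of all tested genes on chow and 19.1% on HFCF. Creb1 itself had log2 -0.09 ± 0.07 on chow and 0.18 ± 0.07 on HFCF, and neither passed. The call on chow was Creb3 (-0.30 ± 0.09, edgeR adjusted p = 0.0345), lost in 6 of 18 alternatives. The call on HFCF was the gluconeogenic enzyme Pck1 (0.52 ± 0.15, edgeR adjusted p = 0.0242), lost without WT HFCF replicate 3 or KO HFCF replicate 1 or 3.

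MEG3 is known to raise p53 activity in human cells, so p53 and its targets were listed. Of 15 tested, 5 rose and 1 fell on chow and 7 rose and 1 fell on HFCF, with medians of 0.38 and 0.28 (0.00 and 0.02 for all tested genes). Upward calls made up 9.72% of all tested genes on chow and 10.6% on HFCF, and downward calls 5.82% and 8.52%. Eda2r, a TNF receptor family member, rose by log2 2.62 ± 0.29 on chow and by 1.71 ± 0.25 on HFCF (edgeR adjusted p = 9.22e-05 and 0.000433). Phlda3, an inhibitor of Akt, rose by 2.28 ± 0.30 on chow and by 1.93 ± 0.27 on HFCF (edgeR adjusted p = 0.000299 and 0.000247). Trp53 itself did not pass (log2 0.38 ± 0.15 and 0.44 ± 0.15). The 6 calls on chow became 3 without WT chow replicate 3. The 8 on HFCF became 5 without WT HFCF replicate 2 or KO HFCF replicate 1 or 2.

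Fetal liver and oncofetal genes were listed because the region is a fetal one, and this list also holds H19 and Igf2. Of 15 tested, 4 rose and 0 fell on chow and 3 rose and 2 fell on HFCF, with medians of 0.39 and 0.19. The shares of all tested genes were 9.72% upward and 5.82% downward on chow, and 10.6% and 8.52% on HFCF. Cd24a, a cell surface glycoprotein, rose on both diets (log2 1.72 ± 0.26 on chow and 1.15 ± 0.25 on HFCF, edgeR adjusted p = 0.000778 and 0.00507). Sox4, a transcription factor, fell on HFCF (-0.74 ± 0.14, edgeR adjusted p = 0.00254). The 5 calls on HFCF became 2 without WT HFCF replicate 2, and 3 without WT HFCF replicate 3 or KO HFCF replicate 1 or 2.

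In whole liver, more RNA per cell and more cells of a type cannot be told apart. Markers of some other cell types also rose in KO. Upward calls made up 9.72% of all tested genes on chow and 10.6% on HFCF. All 7 tested B and plasma cell markers rose in KO on chow and 3 of 7 on HFCF. Their summed level was 8.0 to 11.7 CPM in WT and 384 to 500 CPM in KO on chow, and 6.57 to 11.8 and 198 to 231 CPM on HFCF. Most of the KO sums came from Igkc (262 to 333 CPM on chow, 123 to 149 on HFCF) and Igj (88.3 to 117 and 53.5 to 65.2). Of 9 Kupffer cell and macrophage markers, 6 rose on chow (368 to 418 CPM in WT, 589 to 596 in KO) and 8 on HFCF (344 to 690 in WT, 832 to 869 in KO). Of 5 tested T and NK cell markers, 3 rose on chow and 5 on HFCF, at sums of 1.63 to 3.36 and 2.32 to 2.79 CPM in WT and 5.38 to 9.96 and 7.37 to 10.1 CPM in KO. Of 12 stellate and fibroblast markers, 4 rose on chow (666 to 773 CPM in WT, 869 to 884 in KO) and 2 on HFCF (839 to 969 in WT, 797 to 993 in KO).

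Of 10 endothelial markers, 1 rose on chow, and 1 rose and 1 fell on HFCF, at sums of 564 to 588 CPM in WT and 618 to 654 in KO on chow, and 563 to 656 and 574 to 626 on HFCF. Of 5 cholangiocyte markers 1 rose on chow (30.2 to 45 CPM in WT, 57.7 to 95.3 in KO) and 0 on HFCF (50.3 to 94.3 and 49.2 to 71.3). Of 5 mesothelial markers 1 rose on chow (6.22 to 7.65 CPM in WT, 3.91 to 8.14 in KO) and 1 fell on HFCF (10.6 to 12 and 6.83 to 7.31). The 2 tested adipocyte markers were not called on chow (30.4 to 41.5 CPM in WT, 15.4 to 23 in KO), and both fell on HFCF (223 to 361 in WT, 5.59 to 18.7 in KO). Of the 2 tested markers of neural, muscle or pancreatic tissue 1 fell on HFCF. Of 9 hepatocyte markers, 3 fell on chow, and 1 rose and 3 fell on HFCF. Calls in either direction made up 15.5% of all tested genes on chow and 19.1% on HFCF. For HFCF minus chow in KO, edgeR called 2 of 7 B and plasma cell markers and 1 of 5 mesothelial markers lower. It called 1 of 9 Kupffer cell and macrophage markers higher, and no marker of the other lists. Over all tested genes, 1.18% were called lower and 1.47% higher in that comparison. No list had a tested marker at 0 in a whole group. The part of these cell types in the levels of the 4 members was not tested.

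The genes outside the region whose log2 CPM over the 12 livers was most like that of Meg3, among 11542 ranked, were immunoglobulin genes. Genes with provisional symbols, such as Gm and Rik names, were left out of the ranking. Pearson's r was 0.996 for Igkc, 0.993 for Ighg1, 0.992 for Igj, 0.987 for Ighg2c and 0.986 for Ighv1-59. The other members had 0.985 (Rian), 0.989 (Mirg) and 0.979 (Rtl1) on the same measure. The most opposite genes were Upb1, a pyrimidine-degrading enzyme, at -0.985, Rcan2, a calcineurin regulator, at -0.977, and Olig1, a transcription factor, at -0.972. These values mostly restate the split between 6 WT and 6 KO livers, and are descriptions with no test. Within the 6 KO livers alone, Meg3 had r = 0.976 with Ighg1, 0.948 with Igkc and 0.93 with Igj, but 0.18 with Ighg2c. Among the members, Rian had 0.824, Mirg 0.414 and Rtl1 0.137. The values within KO also carry the diet split, since Meg3, Ighg1, Igkc and Igj each had no overlap between diets in KO. Correlations of deviations from group means were not computed for the immunoglobulin genes. Ighg1 stood at 435 to 506 CPM in KO on chow and 99.9 to 155 CPM in KO on HFCF, so it too was lower on HFCF, whereas Ighg2c overlapped between the diets (148 to 324 and 143 to 278 CPM).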

How the data were processed

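RNA from 12 mouse livers was sequenced after ribosomal RNA removal, with a stranded kit, as the labels' protocols state. For each gene and library the authors deposited a raw count of reads and an FPKM value, per the file headers. FPKM was only set beside the levels per length, and it divides the same counts by the same gene lengths. Coordinates are mm10, a build named in the submitters' processing notes; aligner, counter, strand setting and annotation release are not given in the sources used here. Table starts were read as 0-based and shifted by 1 base.

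Libraries held 13967116 to 18324134 counts, and pairs within a group differed beyond sampling noise (chi-square per degree of freedom 11.21 to 34.42). Genes were filtered with filterByExpr (minimum count 10, minimum total 15), which kept 14736 and removed 1110. Library sizes were corrected by TMM, and models were fitted in edgeR 4.0.16 (R 4.3.3; glmQLFit, glmQLFTest) with 4 group means over all 12 libraries. Its common dispersion corresponds to a biological variation of 0.119 (coefficient). A call means a Benjamini-Hochberg adjusted p below 0.05. The fit was also run on counts simulated with the same dispersion for every gene, and nothing is read from that run here. Log2 CPM for correlations used a prior count of 2. Intervals of ratios are exact conditional 95% intervals and floors are 3 counts.

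The 4 members, the gene lists and the tests were chosen with earlier results of these data known. Named genes were the members, called flanking genes, Nr0b2, up to 4 genes of each list with the lowest adjusted p (a few uncalled ones are given with values), and the 5 highest and 3 lowest correlations with Meg3 among genes averaging at least 1 CPM. Provisional symbols (Gm, Rik and clone names) were left out of the ranking by correlation. Igf2 on HFCF, Creb1, Trp53 and Wdr25 were added after their values were seen. Alternatives were RLE scaling, no filter, at least 1 CPM in 3 libraries, the replicate number as a block, DESeq2 1.42.0, the compared groups alone, a prior count of 0.5, and leaving out each library. Figures used Python, pandas and matplotlib. A result for a gene of these lists is left out and is not reported here.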

Additional observations from a re-analysis of the deposited data

How the results depend on the processing

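No member changed direction between genotypes under any of 18 alternatives per comparison. Since the members were chosen on this difference, that result is no separate evidence. Leaving out 1 library at a time, KO minus WT on chow ranged from 6.54 to 7.27 (log2) for Meg3, 7.71 to 8.35 for Rian, 5.80 to 6.34 for Mirg and 5.77 to 7.17 for Rtl1; on HFCF it ranged from 6.04 to 6.91, 6.63 to 7.23, 6.34 to 9.44 and 5.34 to 7.27. HFCF minus chow in KO ranged from -1.43 to -1.14 for Meg3 and from -0.80 to -0.41 for Rian, while Mirg (-0.53 to 0.01) and Rtl1 (-0.28 to 0.20) crossed 0. WT counts of 0 to 10 per library limit the size of every genotype difference. Called genes ranged, by library left out, from 1152 to 2788 for genotype on chow (2289 with all), 2042 to 2834 on HFCF (2814), 1100 to 2264 for diet in WT (2013), 157 to 776 for diet in KO (390) and 11 to 136 for the interaction (117). The count moved by over 1.5 times for genotype on chow without WT chow replicate 3 (1152) or KO chow replicate 2 (1442), and for diet in WT without WT chow replicate 1 (1255) or 3 (1100) or WT HFCF replicate 1 (1303). For diet in KO it did so without KO chow replicate 1 (157) or 2 (254), WT HFCF replicate 1 (776), or KO HFCF replicate 1 (169) or 2 (178). The interaction fell to 11 to 46 without any 1 of 9 libraries: the 3 of WT on chow, KO chow replicates 1 and 3, WT HFCF replicate 2 and the 3 of KO on HFCF. DESeq2 called 649 genes for diet in KO and 348 for the interaction, and the compared groups alone gave 603 for diet in KO; the cause was not tested. With a replicate block the 5 counts were 2113, 2673, 1813, 386 and 97. The labels do not say whether a replicate number pairs livers. Of 18 same-numbered pairs, 4 had a correlation over 0.1 (range -0.148 to 0.167), and 7 of 12 libraries correlated best with their own number. These values do not settle the pairing. Of 54 called results for named genes, 30 kept their call in every alternative and 24 lost it in at least 1. Named results that were not called were outside this set. Those lost under the block included Creb3, Hsp90aa1, Setdb1 and the Sox4 interaction. Fitted log2 fold changes of the members by diet in WT are not given, because the counts are too low; ratios of counts with intervals stand in their place. With GENCODE exon lengths in place of the table's, an alternative added after seeing the data, the per-length level of Rian became 3.32 on chow and 2.27 on HFCF, and that of Mirg 0.88 and 0.789 (CPM per kb, KO).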
